A study of Mus musculus with 5 samples.

Results

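The transcripts described here encode 10 receptors through which hormones and neurotransmitters act on cells of the small intestine: Adra2a, Sstr1, Sstr2, Sstr5, Galr1, Cnr1, Gper1, Glp1r, Gabbr1 and Chrm3. They were taken by gene symbol, and all 10 were among the 22042 genes of the bulk table and the 27998 genes of the droplet matrix. The bulk libraries came from C57Bl/6J mice carrying Cck-Cre and R26-LSL-tdTomato, aged 6 to 8 weeks, whose small intestinal epithelial cells were sorted into tdTomato+ (CCK+) and tdTomato- (CCK-) fractions. The mice were either kept without food overnight (fasted) or given Ensure, a liquid diet, after the fast (refed), and each of the 4 groups of fraction and state had 3 libraries, named by a letter that the CCK+ and CCK- libraries share (A, B and F fasted; C, D and E refed). The droplet library pooled tdTomato+ cells from the small intestine of 4 untreated C57Bl/6J mice with Neurog3-Cre and R26-LSL-tdTomato, aged 6 weeks. Cre activity marks descendants permanently, so CCK+ cells are cells with a past or present Cck-Cre signal, and Neurog3-traced cells include lineages other than enteroendocrine cells (EECs).

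EECs are sparse hormone-secreting cells of the gut epithelium, and their output is tuned by signals from nerves, immune cells and other EECs. Somatostatin receptors (Sstr1, Sstr2, Sstr5), the galanin receptor Galr1, the alpha-2A adrenergic receptor Adra2a, the cannabinoid receptor Cnr1 and the GABA-B subunit Gabbr1 act mainly through inhibitory G proteins that lower cAMP. Glp1r, the receptor for glucagon-like peptide, acts through a stimulatory G protein, Chrm3, a muscarinic acetylcholine receptor, through Gq and calcium, and Gper1 is a membrane receptor described as responsive to estrogen.

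Cnr1 and Gper1 had the sharpest differences between cell groups, so the DNA upstream of their starts is shown. Both stretches run 5′ to 3′ on the plus strand of GRCm38, from RefSeq, and cover positions -250 to -61 from an annotated start. Capitals mark matches to the E box CANNTG or, on either strand, the GC box GGGCGG. The Cnr1 stretch, at chr4:33924014-33924203, lies before the start of the gene at 33924593 in the GENCODE annotation, and the Gper1 stretch, at chr5:139422929-139423118, before the start at 139423151.
Cnr1: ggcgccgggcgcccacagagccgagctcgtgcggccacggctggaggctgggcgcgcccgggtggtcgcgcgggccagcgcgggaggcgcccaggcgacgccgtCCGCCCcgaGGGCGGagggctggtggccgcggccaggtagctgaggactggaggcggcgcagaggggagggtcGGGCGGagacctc
Gper1: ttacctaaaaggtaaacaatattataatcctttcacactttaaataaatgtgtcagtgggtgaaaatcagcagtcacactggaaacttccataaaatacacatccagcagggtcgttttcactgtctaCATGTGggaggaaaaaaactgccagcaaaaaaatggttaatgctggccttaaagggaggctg
The Cnr1 stretch held 3 GC boxes and no E box, and the Gper1 stretch held 1 E box and no GC box. Windows of the same length held at least 1 E box in 57.3% and at least 1 GC box in 22.8% of 32817 RefSeq promoters, so a single match of either is common. How often a window held 3 GC boxes was not counted. Neither the 190 bases of Cnr1 nor those of Gper1 held the TATA box TATAAA. Cnr1 has other annotated starts, whose windows held no GC box, and the window of the start at 33926380 held 1 E box.

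The sort was checked first. Cck itself lay between 14837 and 32592 normalized counts in the 6 CCK+ libraries and between 27.6 and 86.0 in the 6 CCK- libraries. All 20 EEC marker genes were called higher in CCK+ cells by limma. Their summed level was 111195 to 348123 against 1596 to 3226 normalized counts. Markers of other cells moved with the sort as well: 11 of 15 leukocyte markers were higher in CCK+ cells, with sums of 5479 to 9961 against 624 to 1168, and the pan-leukocyte gene Ptprc stood at 636 to 1678 against 44.3 to 113. Of 6 cycling and crypt markers 4 were higher, with overlapping sums of 1390 to 3677 against 746 to 2314, and of 7 enterocyte markers 5 were lower, with sums of 140538 to 347476 against 367497 to 551329. Their part in the results was not tested. Of 13 markers of enteric neurons and glia, which Cck-Cre can also label, 6 were higher and the sums were 338 to 737 against 41.3 to 64.9, with Ret at a mean of 497 in CCK+ cells, while the neuronal gene Elavl4 was at most 4.42 normalized counts. CCK+ library B of the fasted group had the lowest EEC sum and the highest leukocyte sum. The bulk values are sums over a sorted fraction, so a greater share of cells of a type and more RNA per cell cannot be told apart.

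Of the 10 receptors, 9 were higher in CCK+ than in CCK- cells by limma at an adjusted p under 0.05, against 19.6% of all genes tested called higher. The median difference over the 10 was 4.86 on the scale of log2(normalized count + 1), and 0.090 over all genes. For 6 of them the CCK+ and CCK- libraries did not overlap, as was so, in that direction, for 9.74% of all genes. Below, each difference is in log2(normalized count + 1), which understates the change of genes with low values, with its standard error.

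**Figure D1:**
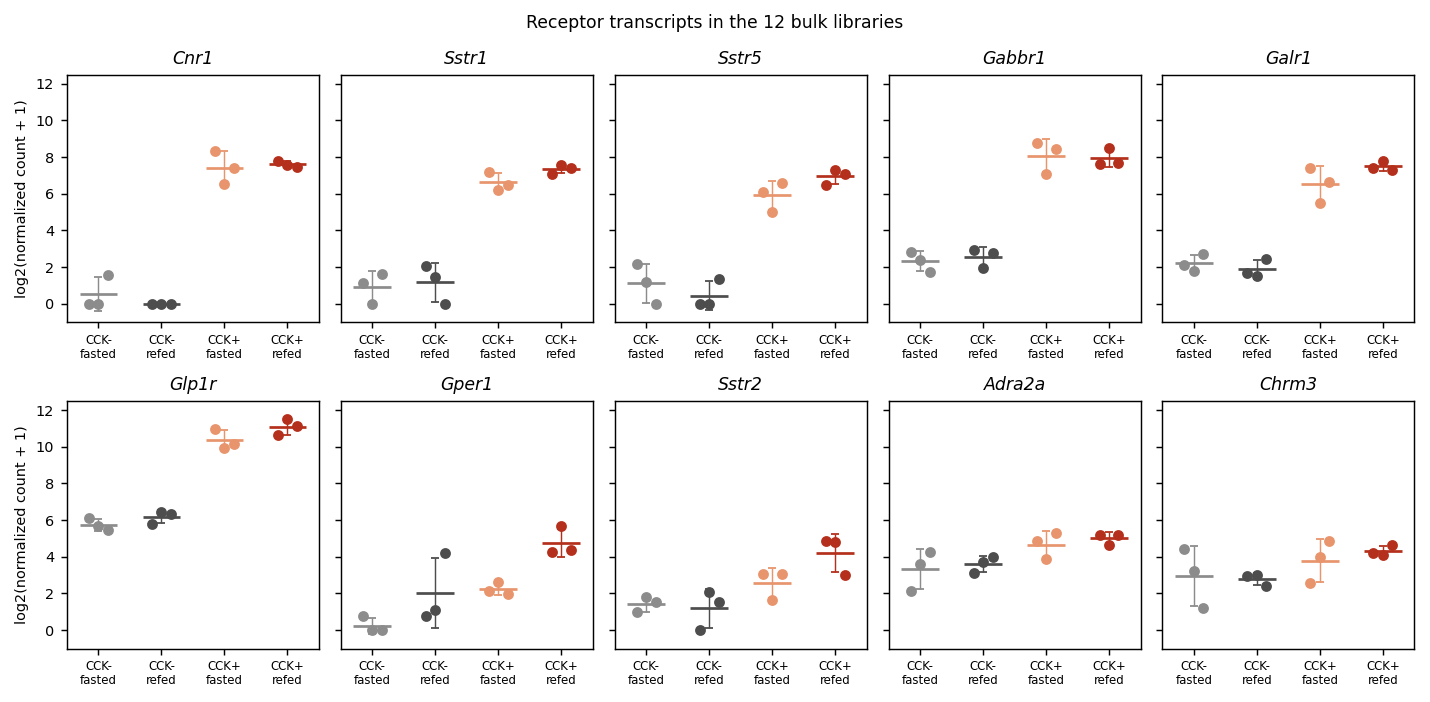
Level of each receptor in each bulk library, as log2(normalized count + 1), for CCK- and CCK+ cells of fasted and refed mice. Points are libraries (3 per group), horizontal lines are means and error bars are SD; Cnr1, Sstr1, Sstr5, Gabbr1, Galr1 and Glp1r separate the CCK+ from the CCK- libraries fully, while Gper1, Sstr2, Adra2a and Chrm3 overlap.

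Cnr1, the receptor that binds endocannabinoids, had the widest gap. The gene lies on the plus strand of chr4:33924593-33948831 (GRCm38). It stood at 325, 91.4 and 170.5 normalized counts in the fasted CCK+ libraries A, B and F and at 223, 191 and 176 in the refed ones (C, D and E). In CCK- cells it was listed at 0 in 5 libraries and at 2.03 in fasted library F. The difference was 7.26 ± 0.41 (limma, adjusted p = 1.00e-08), and the lowest CCK+ library, B, was still far above every CCK- library.

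The somatostatin receptors, through which the peptide of D cells restrains its neighbors, lie apart in the genome, Sstr1 at chr12:58211772-58214444, Sstr2 at chr11:113619342-113626028 and Sstr5 at chr17:25489875-25497288 (GRCm38). Sstr1 was at 147, 73.7 and 89.5 in fasted and 136, 190.4 and 168 normalized counts in refed CCK+ libraries, and at most 3.16 in CCK- cells, a difference of 5.95 ± 0.42 (limma, adjusted p = 1.13e-07). Sstr5 was at 67.8, 31.6 and 95.9 in fasted and 89.1, 154 and 134 in refed CCK+ libraries and at most 3.46 in CCK- cells (5.65 ± 0.47, limma adjusted p = 4.57e-07). Both receptors separated the fractions in every library.
Sstr2 was scarce. It gave 7.29, 2.09 and 7.24 normalized counts in fasted and 27.9, 26.7 and 7.04 in refed CCK+ libraries, and 0 to 3.20 in CCK- cells. The difference of 2.08 ± 0.51 passed the test (limma, adjusted p = 0.00566), although fasted CCK+ library B lay within the CCK- range; with fasted libraries alone it was 1.13 (limma, adjusted p = 0.262). Sstr2 overlaps Slc39a11 on the opposite strand, and the labels and methods do not say that the bulk counting used strand. Sstr3, a somatostatin receptor outside the 10, was also higher in CCK+ cells (5.89 ± 0.51, limma, adjusted p = 7.62e-07), at 20.6 to 121 normalized counts against 0 to 3.33.

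Galr1, which binds galanin, and Gabbr1, the GABA-binding subunit of the GABA-B receptor, followed the same pattern. Galr1 is a gene of chromosome 18, and Gabbr1 lies at chr17:37045966-37075067. Galr1 reached 172, 44.9 and 100.5 normalized counts in fasted and 169, 219.9 and 157 in refed CCK+ libraries, against 1.85 to 5.58 in CCK- cells (4.98 ± 0.36, limma adjusted p = 1.33e-07). Gabbr1 was at 434, 133 and 341 in fasted and 199.9, 363 and 202 in refed CCK+ libraries, against 2.35 to 6.73 (5.57 ± 0.34, limma adjusted p = 2.70e-08). Gabbr2, the partner subunit that a GABA-B receptor needs at the cell surface, did not pass the test. It ranged from 0.470 to 19.7 normalized counts in CCK+ and from 0 to 10.4 in CCK- libraries.

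Glp1r, the target of the peptide that L cells release, lies at chr17:30901817-30940791 and overlaps 2 annotated genes on the opposite strand. It was at 2029, 986 and 1115 normalized counts in fasted CCK+ libraries and at 1605, 2887 and 2226 in refed ones. CCK- libraries held 43.2 to 86.4. The difference was 4.75 ± 0.21 (limma, adjusted p = 8.38e-10), with no overlap. Gcg, the gene of its ligand, was higher in the same fraction (8.83 ± 0.34, limma, adjusted p = 2.66e-10).

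Gper1 was low in fasted CCK+ libraries, at 3.47, 5.23 and 2.94 normalized counts, and at 18.3, 49.3 and 19.9 in refed ones. In CCK- cells it was at 0 to 1.14 in 5 libraries and at 17.3 in refed library E, which therefore overlapped the CCK+ range. The difference was 2.38 ± 0.57 (limma, adjusted p = 0.00473), and with refed libraries alone 2.75 (limma, adjusted p = 0.134). Gper1 lies at chr5:139423151-139427800 and overlaps 3110082I17Rik on the opposite strand.

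Adra2a (chr19:54044151-54048982) and Chrm3 (chr13:9875486-10360847) showed the smallest differences. Adra2a, which binds noradrenaline, was at 27.7, 13.5 and 37.6 normalized counts in fasted and 35.5, 23.8 and 36.1 in refed CCK+ libraries, and at 3.35 to 18.0 in CCK- cells. On the CCK+ side only fasted library B reached into the CCK- range. The difference of 1.36 ± 0.41 (limma, adjusted p = 0.0186) missed the threshold in the fasted libraries alone (1.34, limma adjusted p = 0.324) and without any 1 of CCK+ fasted A, CCK+ fasted F, CCK+ refed E or CCK- refed C (limma, adjusted p = 0.0502 to 0.0539). Chrm3, the muscarinic receptor, ranged from 4.85 to 27.9 in CCK+ and from 1.28 to 20.2 in CCK- libraries, and its difference of 1.19 ± 0.55 did not pass (limma, adjusted p = 0.114). It passed without CCK- fasted library A, which held the 20.2 (1.55, limma, adjusted p = 0.0416), with refed libraries alone (1.53, limma adjusted p = 0.0251) and with libraries scaled to equal sums (1.53, limma adjusted p = 0.0399). Chrm3 overlaps 6 annotated genes, 2 of them antisense.

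Other genes of these signaling chains were counted from lists. Over all 22042 genes, 4324 (19.6%) were called higher in CCK+ cells and 3107 lower by limma, and the counts below are descriptions beside these. Among 67 other hormone and neurotransmitter receptors in the table, 19 were higher in CCK+ cells, 2 were lower and 46 did not pass, with a median difference of 0.29. Sstr3, the bombesin-family receptor Grpr (5.73 ± 0.45) and the prostaglandin E receptor Ptger3 (4.78 ± 0.36) differed most by limma (adjusted p = 7.62e-07, 2.94e-07 and 1.78e-07). The gap between the 10 receptors and this list is a description, since the 10 were chosen with results of these data known.
Of 18 genes for ligands of the 10 receptors or for the enzymes that make or degrade them, 6 were higher and 2 lower. Gcg, Sst (6.25 ± 0.40) and Th, the first enzyme of catecholamine synthesis (6.02 ± 0.42), differed most. Dagla, which makes the endocannabinoid 2-AG, was higher (4.05 ± 0.32), as was Mgll, which breaks it down (4.99 ± 0.44), whereas the lipid hydrolases Faah (-0.69 ± 0.11) and Abhd6 (-1.39 ± 0.17) were lower.
Of 26 genes for G protein alpha subunits and their effectors, 10 were higher and 4 lower. The adenylyl cyclases Adcy1 (6.06 ± 0.29) and Adcy2 (5.57 ± 0.31) and the inhibitory subunit Gnai1 (5.81 ± 0.36) led, and its relative Gnai3 was lower (-0.77 ± 0.11). Among 24 arrestin, receptor kinase and RGS genes, whose products shorten receptor signals, 15 were higher and 0 lower, led by Rgs4 (5.33 ± 0.65), Rgs2 (4.36 ± 0.21) and Rgs7 (4.04 ± 0.86).

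Whether a meal changed the receptors was asked within each fraction. In CCK+ cells 0 of the 10 passed between refed and fasted mice by limma, against 2.55% of all genes. The differences ranged from -0.14 for Gabbr1 to 2.51 for Gper1. Their median was 0.73, against 0.70 for the 20 EEC markers and 0.0081 over all genes. The refed CCK+ libraries also had higher summed EEC markers (277013 to 348123) than the fasted ones (111195 to 247121), though 0 of the 20 EEC markers passed on their own by limma. The markers of other cells that did pass by limma in CCK+ cells were the cycling gene Mki67 (0.96 ± 0.22, adjusted p = 0.0344) and the neuronal gene Elavl3 (2.95 ± 0.69, adjusted p = 0.0372). In CCK- cells Mki67 (1.07 ± 0.22, limma adjusted p = 0.0321), Top2a (1.40 ± 0.29, limma adjusted p = 0.0340) and the goblet gene Agr2 (1.00 ± 0.20, limma adjusted p = 0.0297) were higher after refeeding. The part of these in the receptors' values was not tested.
Gper1 came nearest. Its 3 refed CCK+ libraries all lay above its 3 fasted ones, as did 10.8% of all genes, and the difference was 2.51 ± 0.81 (limma, adjusted p = 0.128). Of the alternatives tried it passed only without the CCK- refed library E, which enters through the shared estimate of spread (limma, adjusted p = 0.0442). Sstr2 (1.64 ± 0.73, limma adjusted p = 0.267), Galr1 (0.96 ± 0.51, limma adjusted p = 0.368) and Glp1r (0.74 ± 0.29, limma adjusted p = 0.218) had higher refed means with overlapping libraries. The 95% intervals were wide: for Cnr1 a difference of 0.19 carried an interval of -1.04 to 1.42.

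**Figure D2:**
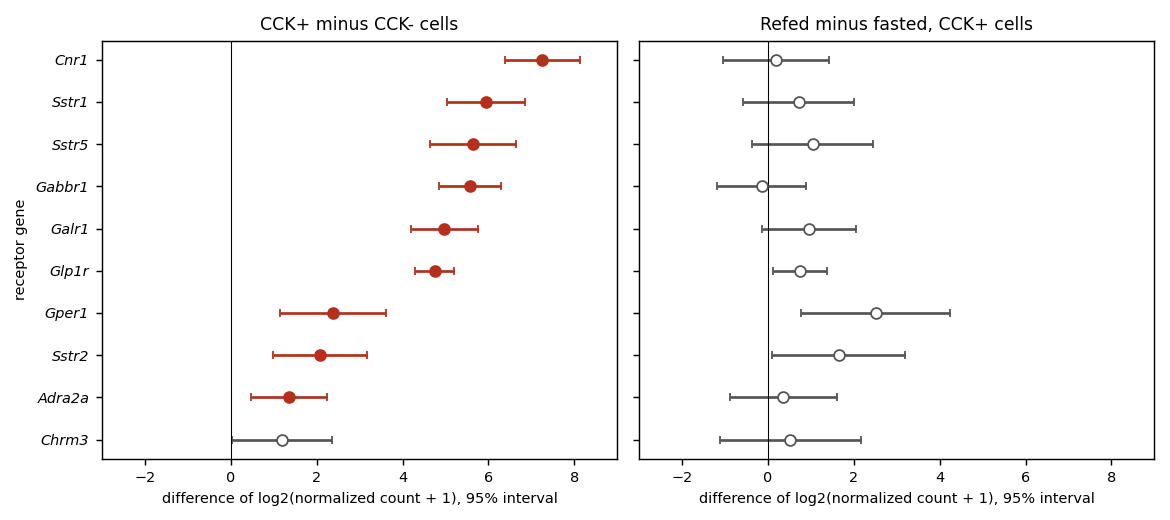
Differences of log2(normalized count + 1) for each receptor with 95% intervals, for CCK+ minus CCK- cells (left) and for refed minus fasted in CCK+ cells (right). Filled red points passed an adjusted p of 0.05 by limma (9 receptors on the left, 0 on the right) and open gray points did not.

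In CCK- cells 0 of the 10 passed between refed and fasted mice by limma, against 1.23% of all genes. Gper1 had the largest difference (1.77 ± 0.81, limma, adjusted p = 0.408). The differences ran from -0.66 to 1.77. The difference of the refed effect between fractions did not pass for any of the 10 by limma (lowest adjusted p = 0.793). Over all genes 1 was called, 0.00454%.

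The droplet library showed which cells held the transcripts. After limits of more than 1000 genes and under 10% of unique molecular identifiers (UMIs) on mitochondrial genes, 9451 of 475960 barcodes remained, with a median of 5984 UMIs. The paper kept fewer cells with these limits. Of the barcodes called cells here, 7129 were over 3892 UMIs, a limit computed after the rule of Cell Ranger 2. Cells were grouped by UMIs per 10000: 1246 with Cck of at least 500, then 2492 with Tph1, the serotonin-synthesis enzyme of enterochromaffin cells, of at least 10, then 321 with Gip, Ghrl or Sst of at least 500, and 5392 remaining cells. Their median depths were 6296, 3226, 6549 and 7472 UMIs. These groups were split further into 16 by other hormones or markers, with limits set after values were seen. Of the 2492 Tph1-high barcodes only 806 were over 3892 UMIs, and levels of the 16 groups were not recomputed over that limit. There is 1 library, so the exact intervals below cover counting error only, no test between groups was made, and doublets were not removed; 505 cells met the limit of more than 1 group.

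**Figure D3:**
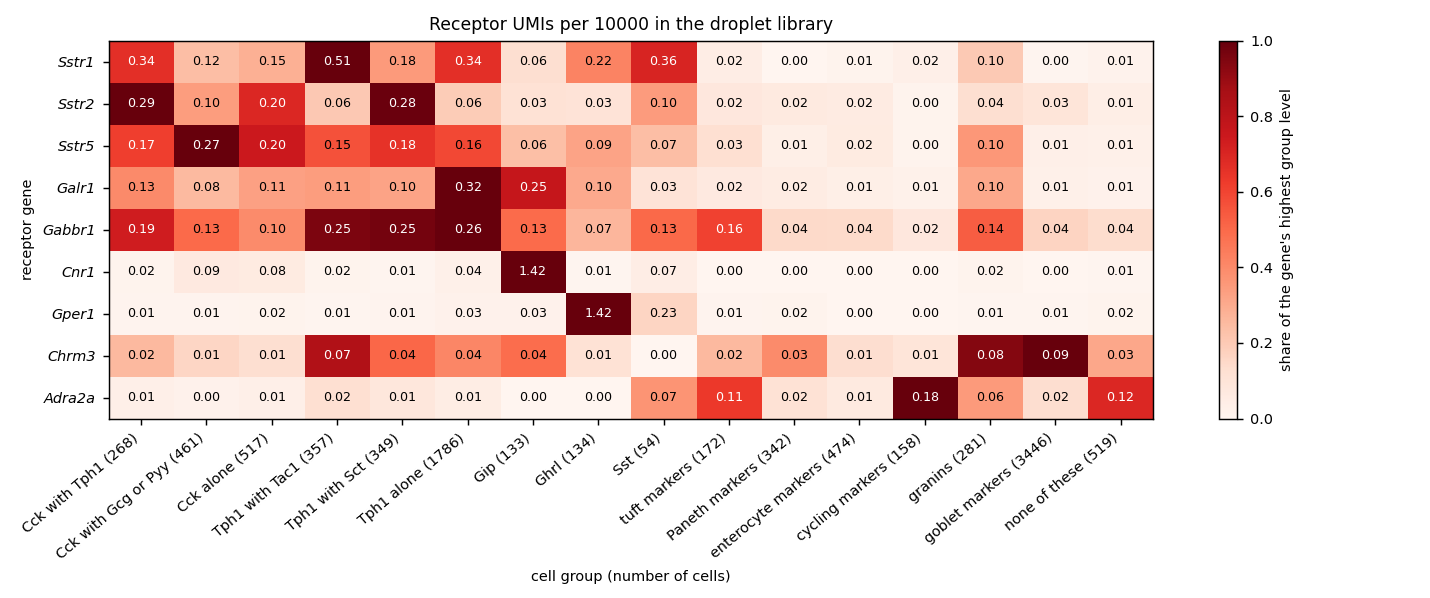
UMIs per 10000 of 9 receptors (numbers in the tiles) in 16 groups of the 9451 droplet cells, with the number of cells in each group on the horizontal axis. Color gives each level as a share of that gene's highest group. Cnr1 peaks in Gip cells and Gper1 in Ghrl cells. Sstr1 and Galr1 peak in Tph1 groups, Sstr2 and Sstr5 in Cck groups, and Gabbr1 is even across the Tph1 groups. Glp1r, with 15 UMIs in all, is left out.

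Cnr1 was concentrated in Gip cells, the K cells that release glucose-dependent insulinotropic peptide. These 133 cells held 132 of the 247 Cnr1 UMIs, or 1.42 UMIs per 10000 (exact Poisson 95% interval 1.19 to 1.68), and 58.6% of them had a UMI (exact binomial 95% interval 49.8 to 67.1%). In 3446 cells with goblet markers, of similar median depth (6690 UMIs against 6499), the share was 0.232%. Cck-high cells as a whole stood at 0.0729 per 10000, and 31 of their 60 Cnr1 UMIs came from the 36 cells that were also Gip-high, at 1.35 per 10000 (0.918 to 1.92); without Gip-high or Ghrl-high cells the level was 0.0398. Tph1-high cells that were also Gip-high, 26 in number, stood at 0.577 (0.249 to 1.14).

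Gper1 was concentrated in Ghrl cells, the X cells that release ghrelin. These 134 cells held 145 of 237 UMIs, at 1.42 per 10000 (1.20 to 1.67), and 61.9% of them had a UMI (53.2 to 70.2%), against 0.406% of cells with goblet markers. Sst cells came next at 0.229 (0.0922 to 0.472, 7 UMIs in 54 cells), with an interval that did not reach that of Ghrl cells. The 193 cells that were both Cck-high and Ghrl-high stood at only 0.0494 per 10000 (0.0181 to 0.108). Among cells high in Ghrl, those also high in Cck therefore had less Gper1 than the rest, with intervals far apart. Cnr1 was at 0.00978 in Ghrl cells, with 1 UMI, and Gper1 at 0.0322 in Gip cells, with 3.

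**Figure D4:**
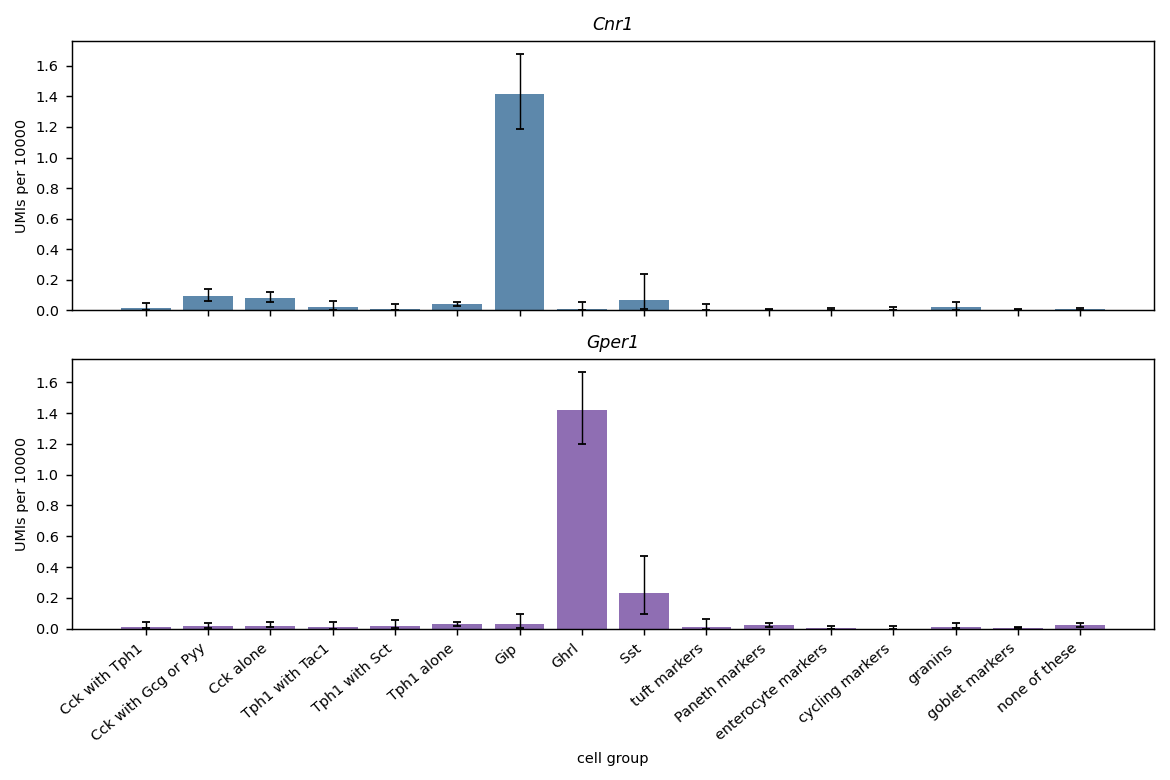
UMIs per 10000 of Cnr1 (top) and Gper1 (bottom) in the 16 droplet cell groups, with exact Poisson 95% intervals as error bars. Gip cells for Cnr1 and Ghrl cells for Gper1 both reach 1.42, and the next highest groups are at 0.0944 and 0.229.

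The somatostatin receptors differed in where they peaked. Sstr1 was highest in Tph1 cells with Tac1, the gene of substance P, at 0.512 per 10000 (0.399 to 0.646). Next came Sst cells at 0.360 (0.180 to 0.645), Tph1 cells without Tac1 or Sct at 0.342 (0.299 to 0.388) and Cck cells with Tph1 at 0.341 (0.261 to 0.438). The intervals of the Sst cells and of the Cck cells with Tph1 overlapped that of the Tac1 cells. The interval of the Tph1 cells without Tac1 or Sct did not. Sstr2 was highest in Cck cells with Tph1 at 0.285 (0.212 to 0.375) and in Tph1 cells with Sct, the secretin gene, at 0.282 (0.200 to 0.387), and was at 0.0585 (0.0252 to 0.115) in Tph1 cells with Tac1. Sstr5 was highest in Cck cells with Gcg or Pyy at 0.273 (0.216 to 0.340), then in Cck cells without these hormones at 0.204 (0.160 to 0.256), with overlapping intervals. Sstr1 in Tph1 cells with Sct was 0.178 (0.114 to 0.265), so among these groups the Tac1 cells had more Sstr1 and the Sct cells more Sstr2, with intervals that did not overlap.
At least 1 UMI of these 3 receptors was found in 30.3% of Cck-high cells (27.7 to 32.9%), 498 of 2492 Tph1-high cells (18.4 to 21.6%), which were shallower, and 17.4% of Gip-, Ghrl- or Sst-high cells, against 3.58% of the remaining cells. Cells with goblet markers stood at 2.61%. After thinning to 2000 UMIs a cell, the order of the first 2 groups turned for Sstr5, with 3.77% of Cck-high and 3.99% of Tph1-high cells, so no order is read from its shares. The share for the 3 together was not computed after thinning, so no order of these 2 groups is read from it either. Per 10000 UMIs, Sstr1 stood at 0.180 in Cck-high and 0.343 in Tph1-high cells, Sstr2 at 0.182 and 0.0875, and Sstr5 at 0.220 and 0.162.

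Galr1 was highest in Tph1 cells without Tac1 or Sct, at 0.321 per 10000 (0.280 to 0.367), and was at 0.110 (0.0614 to 0.181) in those with Tac1 and 0.104 (0.0568 to 0.174) in those with Sct. Gip cells held 0.247 (0.157 to 0.370). The level in Tph1-high cells depended on the limit on UMIs per cell: among barcodes over 3892 UMIs, a limit computed after the rule of Cell Ranger 2 that 806 of the 2492 cells passed, Galr1 moved from 0.261 to 0.165 (0.131 to 0.206), an interval that overlapped that of Gip-, Ghrl- or Sst-high cells at 0.144 (0.0979 to 0.204), and Sstr5 moved from 0.162 to 0.105 (0.0776 to 0.138). Gabbr1 was even across Tph1 cells, at 0.260, 0.252 and 0.248 per 10000 in the 3 Tph1 groups, above the 0.0433 (0.0353 to 0.0525) of cells with goblet markers. In Tph1-high cells over the same UMI limit, Gabbr1 moved from 0.257 to 0.184 (0.148 to 0.227) and Sstr1 from 0.343 to 0.274 (0.229 to 0.325). The level of Gabbr1 in free RNA, pooled from barcodes of up to 100 UMIs, was 0.209, higher than that of the other 9 receptors, at 0.00498 to 0.0548.

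Chrm3 and Adra2a had their highest levels outside hormone cells. Chrm3 was at 0.0878 per 10000 (0.0763 to 0.101) in cells with goblet markers, where 5.75% had a UMI, and at 0.0116 (0.00377 to 0.0271) in cells with enterocyte markers; Tph1 cells with Tac1 stood at 0.0731 (0.0350 to 0.134), an interval that overlapped that of the goblet group. Adra2a was at 0.177 (0.128 to 0.240) in 158 cells with cycling markers and 0.113 (0.0540 to 0.207) in 172 cells with tuft markers, against 0.00486 (0.00132 to 0.0124) in Cck-high cells. Its share in cycling cells, 22.8%, fell to 3.16% after thinning, since these cells were deep (median 14420 UMIs). In bulk, Adra2a was higher in CCK+ cells, where 4 of 6 cycling and crypt markers were also higher by limma (sums of 1390 to 3677 against 746 to 2314 normalized counts), and their part in it was not tested. The 2 datasets came from different mice and sorts and were not tested together.

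Glp1r gave only 15 UMIs in 9451 cells: 10 in Tph1-high, 1 in Cck-high, 0 in Gip-, Ghrl- or Sst-high and 4 in the remaining cells. Of the 10, only 2 were in the 806 Tph1-high cells over 3892 UMIs. The 0 bounds the share of Gip-, Ghrl- or Sst-high cells with a detected UMI at 0.935% (3 counts, counting error only), not the share that express the gene. With a limit of more than 500 genes, 453 such cells held 2 Glp1r UMIs. The bulk CCK+ libraries held 986 to 2887 normalized counts of the same gene. The cause of this difference between the assays was not tested.

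Genes with the most similar pattern over the 16 groups were found among 9767 genes with at least 200 UMIs. Cnr1 went with Gip (Pearson r = 0.998), Nnat (0.996) and Fabp5 (0.993), and Gper1 with Ina (0.998), Serpina1a (0.995) and Maged2 (0.994). In both cases 1 group sets the value, and Gip was used to form that group. Sstr1 went with Mreg (0.944), Phldb2 and Adora2a, the latter an adenosine receptor that was itself higher in CCK+ cells (4.25 ± 0.46, limma adjusted p = 6.42e-06). Sstr2 went with D930028M14Rik (0.953), Prrx2 and Cav2, and Sstr5 with Cerkl (0.947), Nbea and Dnaja4. Galr1 went with Pcsk1n (0.848), Mdm1 and Zfp236, Gabbr1 with Tmem63b (0.954), Cmip and Tnrc6c, Chrm3 with Mroh3 (0.864), Slc22a23 and Gm9994, and Adra2a with 2410016O06Rik (0.953), Ephb4 and Mapkapk3. These values are descriptions over groups of 1 library that share its depth differences.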

How the data were processed

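The bulk values were deposited by the authors as normalized counts, a signal scale: Salmon 1.6.0 estimates on GRCm39 transcripts after Trim Galore 0.6.7, summed per gene and scaled with DESeq2 factors. The values are not whole numbers, sum to 7.06e+06 to 1.14e+07 per library, and give no depth in reads. The authors deposited the droplet data as UMI counts from Cell Ranger 2.0.1 on mm10, with every barcode kept.

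All 22042 bulk genes were fitted together on log2(normalized count + 1) in limma 3.58.1 (R 4.3.3), with 4 group means, a mean-variance trend, 8 residual degrees of freedom and Benjamini-Hochberg adjustment at 0.05, and the fit was tested on simulated data. Each library came from a single mouse according to the paper. The letters were taken to mark 6 mice shared by both fractions, which no source states. The main fit used no mouse term, so p-values measure the spread between these libraries. Cells were grouped by UMIs per 10000 in Python 3.11.15, with the median depth of 5984 UMIs limiting precision for rare transcripts. Gene positions came from GENCODE for GRCm38. Alternatives were pseudocounts, a filter, scalings, a replicate block, left-out libraries and other cell limits. All 10 receptors were named; of each list, mainly the 3 called genes that differed most. The receptors and lists were chosen with earlier results of these data known. The titles of the CCK- samples name CCK+ cells, and the cell type labels were used. Protein sequences were not used here.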

Additional observations from a re-analysis of the deposited data

How the results depend on the processing

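All 10 receptors stayed higher in CCK+ than in CCK- cells under each of the 218 alternative fits of a receptor in that comparison. The number called was 9, and 8 to 10 with a library left out. Over all genes 7431 were called (6520 to 7618 with a library left out), 2169 in fasted libraries alone. Equal library sums moved the median of all genes from 0.090 to 0.35 and the share of calls that were higher from 58.2% to 84.1%. Gper1 and Sstr2 could not be tested with a mean of at least 10 normalized counts.

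For refed against fasted mice, 561 genes were called in CCK+ cells (103 to 876 with a library left out; 119 with no mean-variance trend) and 272 in CCK- cells (79 to 268; 66). The difference between these effects was called for 1 gene (1 to 6; 2), and the receptors called in CCK+ cells numbered 0 to 1. Their small differences changed sign in CCK+ cells: with libraries left out Adra2a ran from -0.046 to 0.66, Cnr1 from -0.27 to 0.64, Gabbr1 from -0.65 to 0.20 and Chrm3 from -0.097 to 1.05, and Gabbr1 was 0.079 with equal library sums. Signs also changed in 7 of 188 such fits in CCK- cells and 8 of 198 for the difference between effects.

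After subtraction of group means, every library correlated best with the same-letter library of the other fraction (r = 0.0773 to 0.124). Because of the subtraction, a library's covariances with the libraries of the other group cancel. A positive match therefore forces negative values among the others (at most -0.0184), which are not a separate result. A replicate block called 7881 (through a correlation) or 7671 genes (as a fixed term) between CCK+ and CCK- cells, and changed no receptor's call in the comparisons fitted. The fixed term could not be fitted for refed against fasted mice within a fraction.

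In the droplet data 2 receptors peaked in Cck-high cells, and 1 after thinning to 2000 UMIs, where Sstr5 was highest in Tph1-high cells. Of 280 receptor levels under other cell limits, 39 left the counting interval. Few UMIs per receptor and 1 library limit these levels.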
